A study of Mus musculus with 16 samples.

Results

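The collagen genes were described as the rows of the gene count table whose symbol is Col, a type number, the letter a and a chain number. Of 52997 gene symbols, 44 were collagens, and 35 of these had at least 10 reads in 4 or more libraries and were used here. By the structure of their products the 35 were 9 fibrillar collagens, 8 network collagens, 5 beaded filament collagens (type VI), 6 FACITs (fibril-associated collagens with interrupted triple helices), 2 multiplexins, 3 transmembrane collagens, the anchoring fibril collagen Col7a1 and Col28a1, which was placed in no class. The 9 others (Col2a1, Col6a4, Col9a1, Col10a1, Col19a1, Col22a1, Col24a1, Col25a1 and Col26a1) reached 10 reads in at most 2 libraries. Of the 35, 33 passed the low-count filter of the test. Col9a3 and Col13a1 did not, and neither was called when the filter was set to the 10-read rule (adjusted p between 0.347 and 0.891 for CGRP against PBS at 4 h or 8 h, edgeR).

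Collagens are made of 3 alpha chains wound into a triple helix, and each chain has its own gene. Fibrillar collagens (types I, III and V) form the banded fibrils of the muscle's connective tissue, network collagens (types IV and VIII) form sheets such as basement membrane, and type VI forms beaded filaments next to the cell surface. FACITs and multiplexins sit on fibrils and basement membranes and organise them, and fibroblast-like stromal cells between the muscle fibres are known as the main makers of collagen in skeletal muscle.

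The libraries came from mesenchymal stromal cells of hindlimb muscle of C57BL/6 mice aged 8 weeks with no genetic change named in the labels. Mice had been injected intraperitoneally with the sensory neuropeptide CGRP (calcitonin gene-related peptide) or with phosphate-buffered saline (PBS), and cells were taken 4 h or 8 h later, which gave 4 groups of 4 biological replicates. Whether a replicate is a mouse or a pool, the dose and the sorting markers are not given in these sources, so p-values measure the spread between these samples. The comparison asks which transcripts of these cells differ after CGRP.

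The 16 libraries held 6373713 to 10011920 counts. Levels are CPM, the read count of a gene scaled to the size of its library. The stromal genes Pdgfra, Pdgfrb, Thy1, Ly6a, Cd34 and Dcn summed to 21345 to 29272 CPM, most of it Dcn. Of the markers of other cell types, 5 of 6 endothelial genes (Pecam1 and Cdh5 among them), 3 of 4 muscle stem cell genes (Pax7, Myf5 and Myod1), 3 of 5 chondrocyte genes, 4 of 6 macrophage genes and 4 of 4 adipocyte genes averaged under 1 CPM. The rest of these lists did not: endothelial Tek averaged 105 CPM, Vcam1 of the muscle stem cell list 84.3, chondrocyte Sox9 37.8 and macrophage Cd68 3.37. Of 6 myofibre genes 1 was under 1 CPM, with Acta1 at 84.9 and Ckm at 20.4. Libraries PBS 4 h replicate 4, PBS 8 h replicates 1 and 4 and CGRP 4 h replicate 3 stood apart in the number of genes with a read (23294 to 25579, against 21138 to 22341 in the others). Results that change when these 4 are left out are given with that value, and 2 PBS libraries then remain at 8 h.

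The upstream sequences of the 3 called collagens with the largest fold changes after CGRP, and the stretch between the paired genes Col4a3 and Col4a4, show the DNA next to the starts of these genes. They come from RefSeq (GRCm38.p6), are written 5′ to 3′ in the direction of the named gene, and leave out bases inside annotated exons. Capitals mark a TATA box (TATAA) in Col17a1 and GC boxes (GGGCGG on either strand) in Col27a1 and Col8a2. The Col17a1 stretch is chr19:47692095-47692292 on the reverse strand and that of Col8a2 is chr4:126286544-126286792 on the forward strand, each directly upstream of the gene's first exon. The Col27a1 stretch, chr4:63215162-63215411 on the forward strand, ends at the RefSeq start and lies in an intron of the longer GENCODE gene model. The stretch between Col4a4 and Col4a3, chr1:82586850-82586920, is written on the reverse strand, towards Col4a4, and is the whole interval between both first exons.
Col17a1: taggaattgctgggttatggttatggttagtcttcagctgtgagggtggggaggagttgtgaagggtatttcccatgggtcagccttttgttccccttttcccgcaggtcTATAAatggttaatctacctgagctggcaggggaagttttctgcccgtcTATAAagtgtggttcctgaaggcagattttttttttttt
Col27a1: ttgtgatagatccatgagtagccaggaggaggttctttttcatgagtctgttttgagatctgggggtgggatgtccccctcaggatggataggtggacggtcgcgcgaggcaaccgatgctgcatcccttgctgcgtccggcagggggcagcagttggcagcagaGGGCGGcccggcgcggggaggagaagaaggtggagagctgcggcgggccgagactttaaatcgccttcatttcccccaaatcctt
Col8a2: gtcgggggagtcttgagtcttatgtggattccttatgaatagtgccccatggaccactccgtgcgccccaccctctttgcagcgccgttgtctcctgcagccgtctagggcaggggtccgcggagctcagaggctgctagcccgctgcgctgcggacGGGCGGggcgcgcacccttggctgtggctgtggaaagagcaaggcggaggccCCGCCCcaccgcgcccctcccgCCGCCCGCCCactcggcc
Col4a3 to Col4a4: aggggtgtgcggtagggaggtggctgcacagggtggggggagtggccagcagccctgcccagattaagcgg

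Among the 44 collagen symbols, 35 had a window in the RefSeq table. These are not the same 35 genes as those that passed the read rule: Col24a1 is among them, and the called Col4a3 and Col14a1 had no window. The 250 bases before each start were searched on both strands beside the 32851 windows of all genes. The cAMP response element TGACGTCA was searched because the CGRP receptor is known to signal through cAMP. It was in 0 of 35 collagen windows and in 1.55% of all windows, a share too low for 0 of 35 to set the collagens apart. Its shorter form TGACG, which lies within it, was in 11.4% (4 of 35: Col4a5, Col7a1, Col11a2 and Col24a1) against 17.8%. The AP-1 motif TGANTCA was in 2.86% (Col6a1) against 6.75%, CCAAT in 31.4% against 33.8%, TATAA in 20% against 22.8% and GGGCGG in 57.1% against 32.7%. A match is a string in a window and was not tied to any binding measured here.

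Collagen transcripts took 4.02% to 7.72% of all counts, with group means of 6.48% ± 0.852 after PBS at 4 h, 5.62% ± 1.30 after CGRP at 4 h, 5.13% ± 0.981 after PBS at 8 h and 4.96% ± 0.880 after CGRP at 8 h (SD, n = 4). The ranges of the 4 groups overlap. Fibrillar collagens made up 68.2% to 75.4% of the collagen counts of a library, beaded ones 17.2% to 22.02%, network ones 4.81% to 8.62%, FACITs 1.11% to 1.95% and multiplexins 0.731% to 1.08%. In bulk RNA, fewer cells of a type and less RNA per cell cannot be told apart.

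Compared per kilobase of the principal coding transcript, Col3a1 was the highest collagen at 3470 ± 925 CPM per kilobase (SD over 16 libraries). Col1a2 followed at 1711 ± 371, Col1a1 at 1362 ± 351, Col6a1 at 1205 ± 185 and Col6a2 at 985 ± 173. Col3a1 was above Col1a2, Col1a2 above Col1a1 and Col6a1 above Col6a2 in 16 of 16 libraries, while Col1a1 was above Col6a1 in 11 of 16. With the merged exons of each gene as its length Col1a2 moved from rank 2 to rank 4. Below a gap came Col5a2 at 265 and Col4a2 at 260, with Col5a2 the higher in 7 of 16 libraries, Col4a1 at 225 and Col6a3 at 195, and then Col5a3 and Col5a1, both at 125, and the leading FACIT, Col14a1, at 114. The multiplexins Col15a1 and Col18a1, which are basement membrane collagens, stood at 55.8 and 43.0. Col4a3 stood at 15.4, Col6a6 at 12.3, Col27a1 at 4.87, Col8a2 at 3.57 and Col17a1 at 2.72. The 7 genes called for CGRP against PBS at either time held ranks 12 (Col14a1), 13 (Col15a1), 17 (Col4a3), 18 (Col6a6), 21 (Col27a1), 22 (Col8a2) and 24 (Col17a1) of the 35, the middle of the range.

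**Figure D1:**
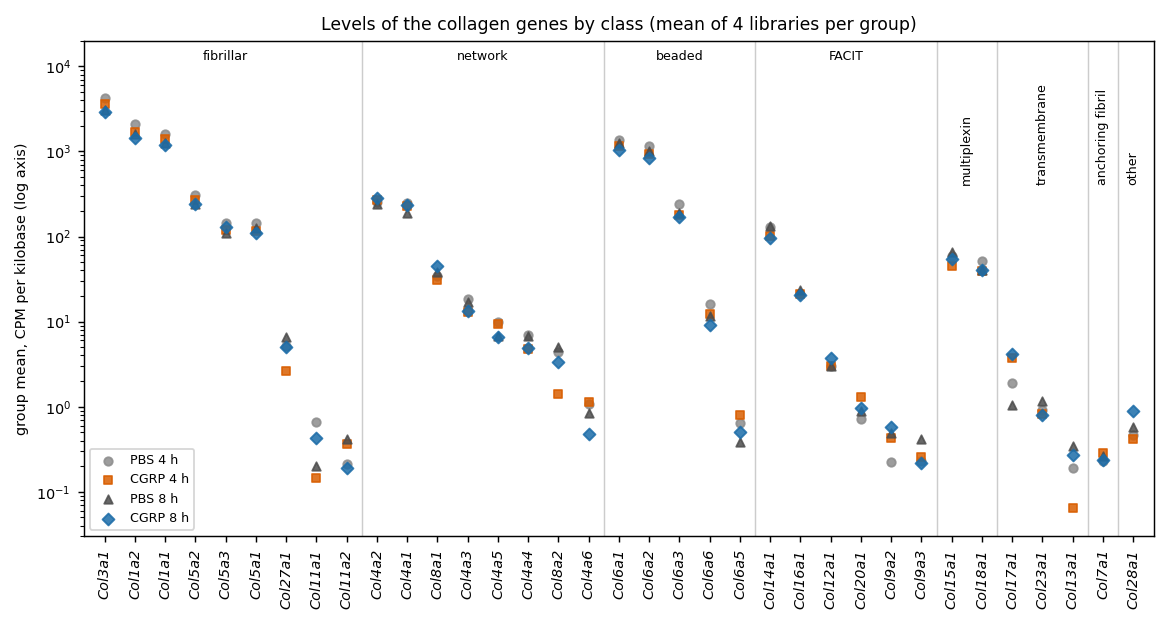
Group means of the 35 collagen genes in CPM per kilobase of transcript on a log axis, ordered within each class, with 1 marker per group of 4 libraries. Col3a1 leads at a mean of 3470 over 16 libraries, and the markers of the 4 groups lie close together for the abundant genes. Col8a2, Col17a1 and Col27a1 spread apart. So do low genes that were not called, such as Col11a1 (0.144 to 0.665) and Col13a1 (0.065 to 0.347).

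At 4 h after the injection 6 of 33 tested collagens (18.2%) were called for CGRP against PBS, beside 16.2% of all 13949 genes tested (7.84% rose and 8.37% fell). A call means an adjusted p under 0.05 in edgeR's quasi-likelihood test. The transmembrane collagen Col17a1 rose, and Col27a1, Col8a2, Col6a6, Col4a3 and Col15a1 fell. The median log2 fold change of the 33 was -0.18 and 24 were negative, beside a median of -0.0021 and 50.2% negative over all genes. That median stayed negative under every alternative tried, from -0.35 to -0.11. The 33 genes were measured in the same libraries, so 24 of 33 are not separate observations. Over the CGRP libraries at 4 h the share of collagens in all counts ran from 4.11% to 6.96%. The number of calls was 3 without CGRP 4 h replicate 1 and 2 without CGRP 4 h replicate 4. It was 6 without the 4 libraries with many genes, but then Col6a2 and Col6a3 were called and Col17a1 and Col4a3 were not. The summed stromal markers, mostly Dcn, were also lower in every CGRP library than in every PBS library, at 21345 to 24046 against 24474 to 29272 CPM. Pdgfra, Pdgfrb, Thy1, Cd34 and Dcn were each lower in the mean. Ly6a went the other way, at 2579 to 2715 CPM after CGRP against 2057 to 2430 after PBS. The part of the stromal markers in the collagen values was not tested.

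At 8 h, which shares no library with 4 h, 3 of 33 (9.09%) were called beside 8.67% of all genes (5.0% rose and 3.67% fell). Col17a1 rose, and Col14a1 and Col6a6 fell. The median log2 fold change was -0.14, with 20 negative, beside -0.018 and 52.4% negative over all genes, and it stayed between -0.24 and -0.014 under the alternatives. Without CGRP 8 h replicate 1 or replicate 2 the count was 1, and without the 4 libraries with many genes it was 0. The summed stromal markers stood at 22657 to 23890 CPM after CGRP and 25422 to 28177 after PBS, again apart. Ly6a again went the other way, at 1976 to 2403 CPM after CGRP against 1670 to 1806 after PBS. Pdgfra and Dcn were lower after CGRP without overlap, while Pdgfrb, Thy1 and Cd34 overlapped. Both shares of called collagens are near the share of all genes, so neither sets the collagens apart. The numbers of negative values come from genes measured in the same libraries and were not tested.

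The difference between the 8 h and 4 h effects was called for 0 of 33 collagens, beside 1.12% of all genes, of which 0.695% in the upward and 0.423% in the downward direction (6 at an unadjusted p under 0.05 in edgeR, 0 in DESeq2, and 1 without PBS 8 h replicate 2). A collagen called at 1 time and not at the other is therefore not shown to respond differently at both times.

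**Figure D2:**
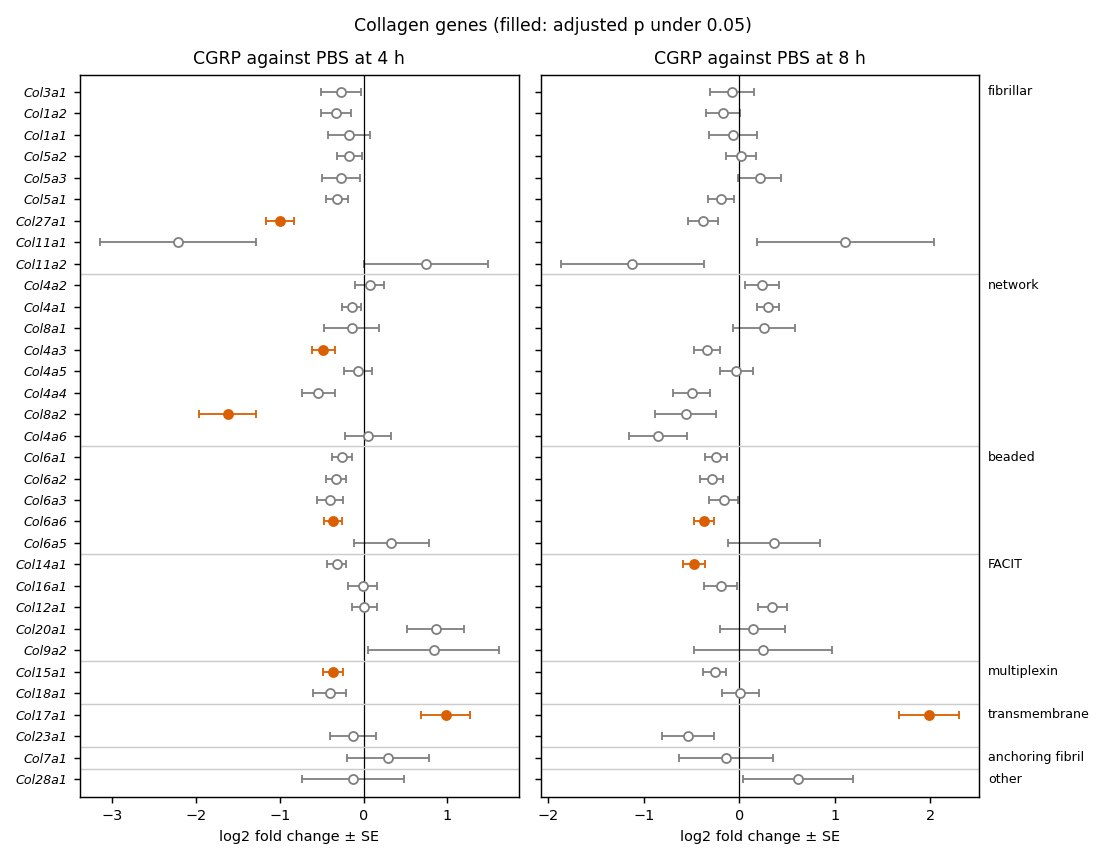
Log2 fold change of CGRP against PBS with its SE for the 33 tested collagens at 4 h (left) and 8 h (right), ordered by class, with filled points for an adjusted p under 0.05. At 4 h 24 points lie below 0 and 6 are filled, and at 8 h 20 lie below 0 and 3 are filled.

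Among the fibrillar collagens, 1 of 9 fell at 4 h and 0 of 9 at 8 h, with medians of -0.27 and -0.08. The abundant type I, III and V genes did not pass. Col3a1, the homotrimeric type III collagen of reticular fibrils, gave 30227, 22992, 22062 and 20477 CPM in replicates 1 to 4 after PBS at 4 h and 13649, 23418, 25269 and 17093 after CGRP. At 8 h it gave 15956, 23981, 14768 and 13961 after PBS and 12547, 14454, 21775 and 16310.2 after CGRP. The groups overlap at both times, and the PBS libraries at 4 h alone ran from 20477 to 30227. Its log2 fold change was -0.27 ± 0.23 at 4 h (edgeR adjusted p = 0.503) and -0.08 ± 0.23 at 8 h (adjusted p = 0.899), and the latter was 0.13 without PBS 8 h replicate 2 and 0.03 without CGRP 8 h replicate 1.

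The chains of type I collagen, the main tensile fibril, were alike: Col1a1 at -0.18 ± 0.25 and -0.07 ± 0.25 and Col1a2 at -0.33 ± 0.18 and -0.17 ± 0.18 (log2, 4 h and 8 h). The type V chains, which set fibril diameter, ranged from -0.31 (Col5a1, edgeR adjusted p = 0.119) to -0.17 (Col5a2) at 4 h and from -0.19 (Col5a1) to 0.21 (Col5a3) at 8 h. The least abundant fibrillar genes had wide errors. Col11a1, a chain of cartilage fibrils, was at 6.41, 6.66, 1.29 and 6.04 CPM after PBS at 4 h and at 0.305, 2.30, 1.01 and 0.798 after CGRP, groups that overlap (log2 fold change -2.22 ± 0.93, edgeR adjusted p = 0.127).

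Col27a1, a fibrillar collagen known from cartilage, was the fibrillar gene that fell at 4 h. It gave 44.5, 35.6, 32.5 and 45.2 CPM after PBS and 14.1, 17.4, 20.98 and 26.7 after CGRP, so that every CGRP library lay below every PBS library. Its 8 h values were 54.5, 45.2, 40.6 and 61.0 after PBS and 38.2, 36.7, 36.8 and 43.4 after CGRP, and there the highest CGRP library passed the lowest PBS library. The change at 4 h was a 2.00-fold fall (log2 fold change -1.0 ± 0.17, edgeR adjusted p = 3.1e-04, exact two-sided permutation p = 0.0286, the smallest that 4 against 4 libraries can give), and at 8 h the value was -0.38 ± 0.16 (edgeR adjusted p = 0.155). The call at 4 h stayed under all 25 alternatives.

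Among the network collagens, 2 of 8 fell at 4 h (Col8a2 and Col4a3) and 0 of 8 were called at 8 h, with medians of -0.14 and -0.19. Col8a2 encodes a chain of type VIII collagen, the short-chain collagen of hexagonal lattices. It gave 29.9, 19.0, 11.4 and 16.03 CPM after PBS at 4 h and 3.96, 8.47, 7.29 and 5.05 after CGRP. The 8 h libraries held 15.5, 21.4, 22.5 and 28.1 after PBS and 8.90, 17.9, 22.1 and 9.94 after CGRP. At 4 h the groups do not overlap, while at 8 h CGRP replicates 2 and 3 lay among the PBS libraries and replicates 1 and 4 below them.

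Col8a2 thus fell 3.08-fold at 4 h (log2 fold change -1.62 ± 0.34, edgeR adjusted p = 0.0035, exact permutation p = 0.0286), and the call stayed under all 25 alternatives. At 8 h the value was -0.56 ± 0.32 (edgeR adjusted p = 0.319). Its partner chain Col8a1 was at -0.14 ± 0.33 and 0.26 ± 0.33 and was not called. The summed level of 6 tendon cell markers moved in the same direction at 4 h: 588 to 1305 CPM after PBS and 214 to 758 after CGRP. At 8 h it was 489 to 1065 and 774 to 1321. That sum was mostly Thbs4, with group means of 612 after PBS and 488 after CGRP at 4 h and 488 and 805 at 8 h. Fmod, Tnmd and Kera had means of 298, 47.5 and 30.9 after PBS at 4 h and 51.6, 18.3 and 9.41 after CGRP. The defining marker Scx was under 1 CPM on average. The sum of 8 pericyte and smooth muscle markers was 71.8 to 137 and 32.1 to 68.9 at 4 h and 115 to 173 and 99.6 to 133 at 8 h, mostly Cspg4, with Rgs5 and Tagln under 1 CPM on average. The part of these cells in the values of Col8a2 and Col27a1 was not tested.

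The main basement membrane chains Col4a1 and Col4a2, which lie head to head on chromosome 8 and share 22 bases at their starts, did not pass. Col4a2 gave 1656, 1110.5, 2038 and 1761 CPM after PBS at 4 h and 1252, 1842, 1935 and 1871 after CGRP. In the 8 h groups it had 1359, 1807, 1612 and 1378 after PBS and 1508, 1704, 1968 and 2067 after CGRP. The groups overlap at both times (log2 fold change 0.07 ± 0.18, or -0.08 without PBS 4 h replicate 2, and 0.24 ± 0.18 at 8 h). Col4a1 was at -0.14 ± 0.12 and 0.30 ± 0.12 (edgeR adjusted p = 0.451 and 0.119). At 8 h Col4a1 was called as higher with library totals as the scale (adjusted p = 0.0388), with no filter on low counts (0.0044) and without CGRP 4 h replicate 1 or PBS 8 h replicate 2 (0.0342 and 0.047).

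Col4a3 and Col4a4, chains of the type IV trimer known from the kidney's glomerular membrane, also lie head to head, 71 bases apart on chromosome 1, as printed above. Col4a3 gave 132, 137, 186 and 169 CPM after PBS at 4 h and 93.3, 144, 99.3 and 111 after CGRP. At 8 h it gave 127.5, 155, 149.9 and 144 after PBS and 86.5, 121, 126.8 and 121 after CGRP. At 4 h CGRP replicate 2 lay among the PBS libraries and the other 3 below them, and at 8 h the highest CGRP library lay just under the lowest PBS library.

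Col4a3 fell at 4 h by a log2 fold change of -0.48 ± 0.14 (edgeR adjusted p = 0.0228, exact permutation p = 0.0857) and was at -0.34 ± 0.14 at 8 h (edgeR adjusted p = 0.146). The 4 h call was lost without CGRP replicates 1, 3 or 4 (adjusted p = 0.0877, 0.0723 and 0.0659), without PBS replicates 3 or 4 (0.0866 and 0.0647) and without the 4 libraries with many genes (0.164). Col4a4 gave values close to those of its neighbour, -0.54 ± 0.19 at 4 h and -0.50 ± 0.19 at 8 h, and was not called (edgeR adjusted p = 0.0663 and 0.124). Col4a3 shares 563 exon bases with the gene C430014B12Rik on the opposite strand, and the kit marks no strand. That gene stood at 0.104 to 3.46 CPM, far below Col4a3.

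The X-linked pair Col4a5, the third chain of that same trimer, and Col4a6, which joins Col4a5 in another, start 1308 bases apart. Col4a6 gave 4.27, 10.3, 7.49 and 6.56 CPM after PBS at 4 h and 6.70, 7.50, 9.17 and 6.52 after CGRP. Its 8 h values were 4.33, 6.00, 7.29 and 4.97 after PBS and 2.73, 1.94, 3.23 and 4.74 after CGRP. The 4 CGRP libraries at 8 h were the lowest group, though the highest of them passed the lowest PBS library. CGRP against PBS was not called at 8 h (log2 fold change -0.85 ± 0.30, edgeR adjusted p = 0.0809), and Col4a5 was at -0.07 ± 0.17 and -0.03 ± 0.17.

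**Figure D3:**
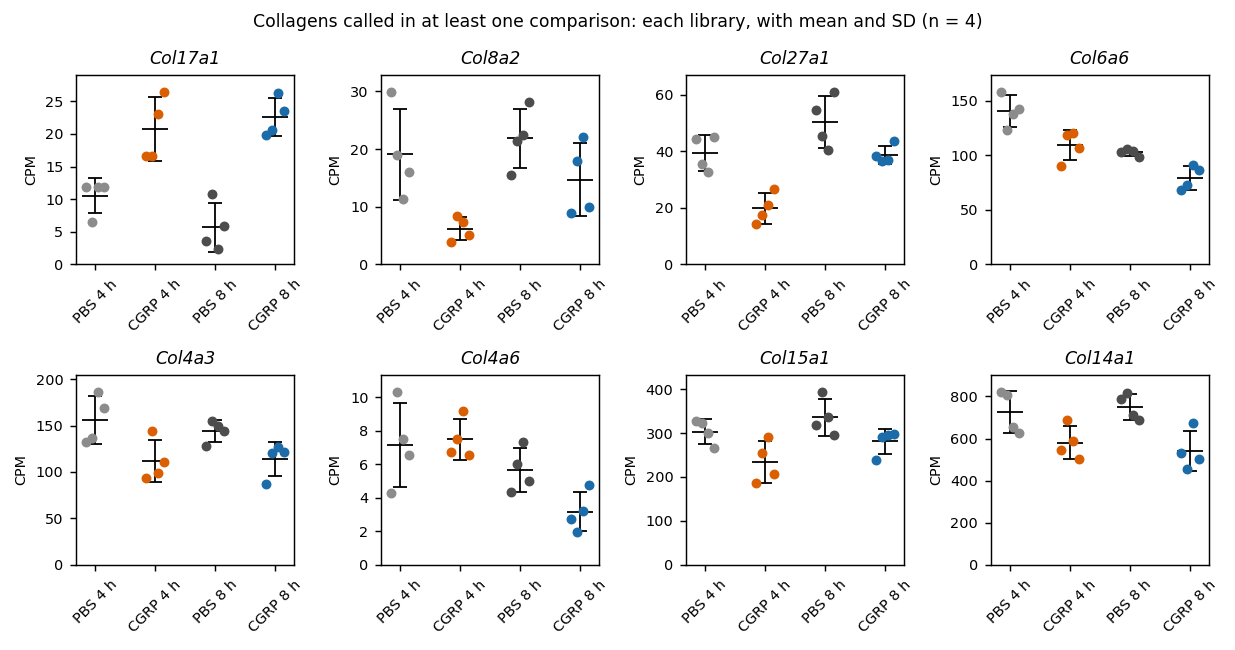
CPM in each library of the 8 collagens called in at least 1 comparison, by group, with the mean and SD of 4 libraries and axes from 0. Col17a1 is higher in all CGRP libraries than in all PBS libraries of the same time, and Col27a1 and Col8a2 are lowest in the 4 CGRP libraries at 4 h.

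Type VI collagen forms the beaded filaments that anchor cells to the surrounding matrix. Of its 5 tested chains 1 fell at 4 h and at 8 h, Col6a6, and the medians were -0.33 and -0.24. Col6a6 is an alternative to the alpha-3 chain of type VI. It gave 158, 124, 138 and 142 CPM after PBS at 4 h and 90.7, 119, 120.4 and 107 after CGRP. The 8 h libraries held 103, 106, 104 and 98.4 after PBS and 67.9, 72.7, 91.0 and 86.7 after CGRP. At each time all CGRP libraries lay below all PBS libraries, by a small margin.

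The log2 fold change of Col6a6 was -0.36 ± 0.10 at 4 h (edgeR adjusted p = 0.0195) and -0.37 ± 0.11 at 8 h (edgeR adjusted p = 0.0309), with an exact permutation p of 0.0286 at both times. At 4 h the call was lost without CGRP replicates 1 or 4 (adjusted p = 0.0959 and 0.0582) or PBS replicate 1 (0.0873). At 8 h it was lost without CGRP replicates 1 or 2 (0.134 and 0.0955), without any 1 of PBS replicates 1 to 4 (0.0731, 0.0703, 0.0753 and 0.0598), with library totals as the scale (0.0525) and without the 4 libraries with many genes (0.164).

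The abundant type VI chains were lower in the means but did not pass. Col6a1 gave 6325, 5533, 5582 and 5107 CPM after PBS at 4 h and 3761, 5387, 5327 and 4391 after CGRP. In the 8 h groups it had 4942, 5977, 4726 and 4767 after PBS and 3551, 4239, 5053 and 4389.7 after CGRP. The groups overlap at both times, with CGRP replicate 1 the lowest library of each. Its log2 fold changes were -0.26 ± 0.12 and -0.24 ± 0.12 (edgeR adjusted p = 0.142 and 0.212). Col6a2 was at -0.33 ± 0.12 and -0.29 ± 0.12 (0.0767 and 0.161) and Col6a3 at -0.40 ± 0.15 and -0.16 ± 0.15 (0.0827 and 0.591).

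Of the 5 tested FACITs, which decorate fibrils, 0 were called at 4 h and 1 fell at 8 h, with medians of 0.0098 and 0.14. Col14a1, which binds type I fibrils and limits their growth, was the one that fell. It gave 821, 806, 655 and 626 CPM after PBS at 4 h and 546, 686, 588 and 504 after CGRP. At 8 h it gave 787, 818, 709.9 and 690.2 after PBS and 531, 457, 674 and 502 after CGRP. At 8 h every CGRP library lay below every PBS library, while at 4 h CGRP replicate 2 lay above PBS replicates 3 and 4.

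Col14a1 fell by a log2 fold change of -0.47 ± 0.12 at 8 h (edgeR adjusted p = 0.0154, exact permutation p = 0.0286) and was at -0.32 ± 0.12 at 4 h (edgeR adjusted p = 0.0664). The 4 h value was called with upper-quartile scaling (0.0447), with no filter on low counts (0.0087) and without CGRP 4 h replicate 2, CGRP 8 h replicate 3 or PBS 4 h replicate 4 (0.0262, 0.0416 and 0.0424). The 8 h call was lost without CGRP replicates 1, 2 or 4 (adjusted p = 0.0503, 0.051 and 0.0567) and without the 4 libraries with many genes (0.116). The FACIT Col12a1, a fibril-bridging collagen, was at 0.01 ± 0.15 and 0.35 ± 0.15, and Col16a1 at -0.01 ± 0.18 and -0.20 ± 0.18. Col20a1 was at 3.42, 2.81, 5.68 and 2.499 CPM after PBS at 4 h and 7.11, 5.81, 6.41 and 6.65 after CGRP, groups that do not overlap, and was not called (log2 fold change 0.86 ± 0.34, edgeR adjusted p = 0.0914, and 0.0311 without PBS 4 h replicate 3).

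Col15a1, 1 of the 2 multiplexins and a collagen that links basement membrane to fibrils, gave 327, 323, 299 and 265 CPM after PBS at 4 h and 185, 255, 291 and 208 after CGRP. Its 8 h values were 319, 393, 336 and 295 after PBS and 238, 292, 296 and 299 after CGRP. The groups overlap at both times, with CGRP replicate 1 the lowest library of each. Its fall at 4 h, -0.37 ± 0.12, was close to the threshold (edgeR adjusted p = 0.0415, exact permutation p = 0.0571). The adjusted p was 0.153 without CGRP 4 h replicate 1, 0.142 without replicate 4, and 0.118, 0.105 and 0.0715 without PBS 4 h replicates 1, 2 and 3. It was between 0.0508 and 0.0554 without CGRP 8 h replicates 2, 3 or 4 or PBS 8 h replicates 1 or 3, 0.067 with library totals as the scale, and 0.0688 when only the 4 h groups were fitted. Col15a1 was at -0.26 ± 0.12 at 8 h, and Col18a1, whose end fragment is endostatin, at -0.41 ± 0.19 and 0.01 ± 0.19.

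Col17a1 encodes a transmembrane collagen known as a hemidesmosome protein of epithelia, and it was called as higher after CGRP at both times, with no other of the 33 called as higher in that fit. It gave 11.8, 6.45, 11.9 and 11.9 CPM after PBS at 4 h and 16.7, 16.6, 23.1 and 26.5 after CGRP. The 8 h libraries held 3.56, 10.8, 2.43 and 5.91 after PBS and 19.9, 20.6, 26.3 and 23.6 after CGRP. All 4 CGRP libraries lay above all 4 PBS libraries at each time.

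The rise of Col17a1 was 1.97-fold at 4 h (log2 fold change 0.98 ± 0.29, edgeR adjusted p = 0.0279) and 3.98-fold at 8 h (1.99 ± 0.31, edgeR adjusted p = 8.4e-04), with an exact permutation p of 0.0286 at both times. The difference between both effects was 1.01 ± 0.43 and was not called (edgeR adjusted p = 0.276). From 4 h to 8 h Col17a1 was at 0.13 ± 0.28 after CGRP and -0.88 ± 0.32 after PBS, neither called (edgeR adjusted p = 0.860 and 0.233). Group means at 4 h and 8 h were 10.5 and 5.69 CPM after PBS and 20.7 and 22.6 after CGRP. A larger effect at 8 h is therefore not shown. At 4 h the call was lost without CGRP replicates 3 or 4 (adjusted p = 0.0572 and 0.0897), PBS replicate 2 (0.0854) or the 4 libraries with many genes (0.0911). At 8 h it stayed without any 1 library and was lost without the 4 (log2 fold change 1.77, adjusted p = 0.0584). Of the remaining collagens, Col23a1, another transmembrane collagen, was at -0.13 ± 0.27 and -0.54 ± 0.27. Col7a1, the anchoring fibril collagen, was at 1.99, 2.39, 1.68 and 2.499 CPM in the PBS libraries at 4 h (replicates 1 to 4), 1.42, 2.78, 3.90 and 2.53 in the CGRP libraries at 4 h, 4.20, 2.05, 2.43 and 1.07 in the PBS libraries at 8 h, and 4.75, 0.755, 1.35 and 1.99 in the CGRP libraries at 8 h. Its groups overlapped at both times, and neither effect was called (log2 fold changes 0.29 ± 0.49 and -0.14 ± 0.49). Col28a1 was at 3.28, 1.25, 1.68 and 1.56 CPM after PBS and 0, 2.30, 1.63 and 3.19 after CGRP at 4 h, and at 1.53, 1.46, 2.89 and 3.90 after PBS and 2.43, 3.13, 4.58 and 4.89 after CGRP at 8 h. These groups overlapped too, with no call (-0.13 ± 0.61 and 0.61 ± 0.58).

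Between the times, 0 of 33 collagens were called for 8 h against 4 h after PBS, beside 0.516% of all genes, 0.265% upward and 0.251% downward (6 at an unadjusted p under 0.05 in edgeR, 1 in DESeq2, Col6a6). The count was 2 without CGRP 4 h replicate 1 (Col4a1 and Col6a6). It was 1 without CGRP 8 h replicate 1 or 3 or PBS 4 h replicate 4 (Col6a6 each time) or PBS 8 h replicate 2 (Col17a1). All of these were lower at 8 h. After CGRP 4 of 33 (12.1%) were called, beside 7.26% of all genes (4.2% rose and 3.05% fell). Both time comparisons use the same libraries as the CGRP comparisons. Col27a1 and Col8a2, the genes with the lowest CGRP values at 4 h, were higher at 8 h than at 4 h after CGRP (log2 fold changes 0.97 ± 0.17 and 1.26 ± 0.34, edgeR adjusted p = 8.4e-04 and 0.0323). Col4a6 and Col6a6 were lower (-1.26 ± 0.29 and -0.46 ± 0.11, edgeR adjusted p = 0.0095 and 0.0088). After PBS the same 4 genes were at 0.35 ± 0.16, 0.20 ± 0.31, -0.35 ± 0.28 and -0.45 ± 0.11, and none of them was called. For Col6a6 the value after PBS lay just above the threshold (edgeR adjusted p = 0.0516) and was close to that after CGRP. Its groups were apart after PBS and overlapped after CGRP, so its fall over time is not shown to be particular to CGRP.

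The time call of Col8a2 after CGRP was lost without CGRP 4 h replicates 1 or 4 (adjusted p = 0.103 and 0.096) and without CGRP 8 h replicates 2 or 3 (0.0895 and 0.101). Without the 4 libraries with many genes it was lost for Col8a2 and Col6a6 (0.0733 and 0.0577), which left 2 calls. Those of Col27a1 and Col4a6 stayed under all 25 alternatives.

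Ratios of transcript levels per kilobase were taken between chains of the same collagen type, and between type III and type I, in each of the 16 libraries. Col1a1 to Col1a2 was 0.793 ± 0.073 (0.707 to 0.932), and Col6a1 to Col6a2 was 1.23 ± 0.0586. Both ratios depend on the length taken for a gene, and with merged exons they were 1.67 and 2.43, so their size is uncertain, while their relative spread is the same at either length. Col4a3 to Col4a4 was 2.69 ± 0.403, Col5a1 to Col5a2 0.474 ± 0.0516, Col6a3 to Col6a1 0.161 ± 0.0146 and Col3a1 to Col1a1, whose products are separate trimers that can share a fibril, 2.55 ± 0.178. Col4a1 to Col4a2 was 0.877 ± 0.172, and its spread came from PBS 4 h replicate 2 at 1.499, with the other 15 libraries between 0.781 and 0.966. The ranges of CGRP and PBS libraries overlap at 4 h for each of the 6 ratios plotted. At 8 h Col5a1 to Col5a2 was 0.509 to 0.548 after PBS and 0.416 to 0.476 after CGRP.

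**Figure D4:**
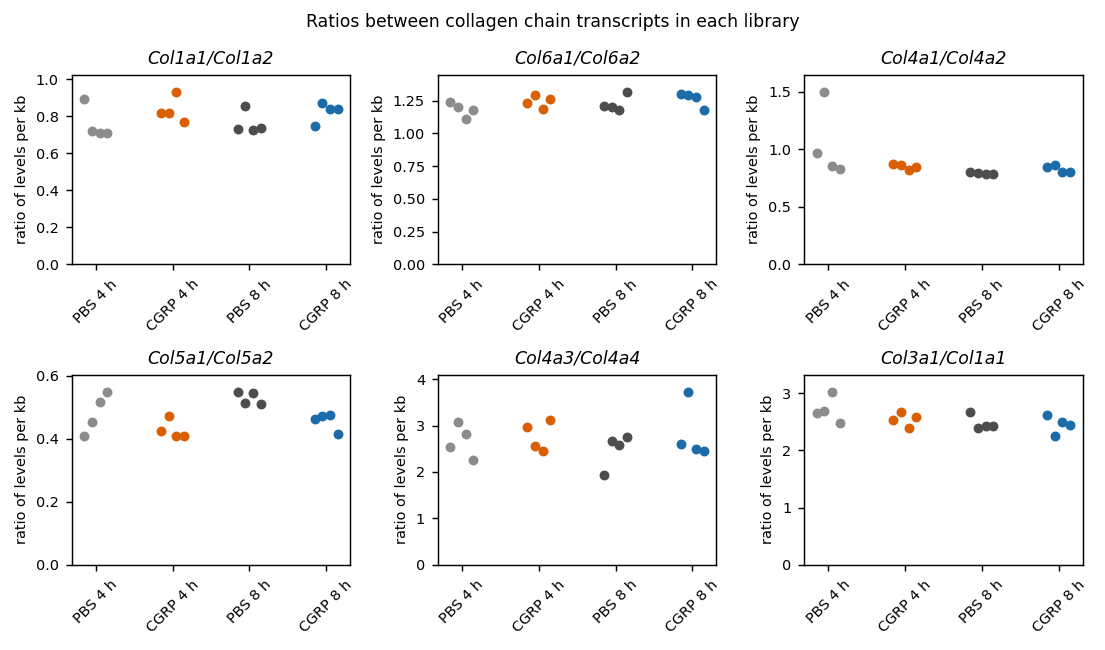
Ratio of transcript levels per kilobase for 6 pairs of collagen genes in each of the 16 libraries, by group, with axes from 0. PBS 4 h replicate 2 stands out at 1.499 for Col4a1 to Col4a2, and the other 15 libraries lie between 0.781 and 0.966.

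Collagen chains need many other proteins to be modified, folded, secreted, trimmed, cross-linked and bound. Of 50 genes listed for these steps, 49 were tested. At 4 h 13 of 49 (26.5%) were called, 3 rose and 10 fell, beside 16.2% of all genes, and the median log2 fold change was -0.18. At 8 h 9 of 49 (18.4%) were called, 3 rose and 6 fell, beside 8.67% of all genes, with a median of -0.11. Without the 4 libraries with many genes these counts were 9 and 1.

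Among the 13 hydroxylases and glycosyltransferases, which modify proline and lysine residues of the chains, 1 rose and 4 fell at 4 h and 1 rose at 8 h. Plod2, the lysyl hydroxylase of the telopeptides, gave 19.8, 22.05, 20.4 and 18.4 CPM after PBS at 4 h and 32.5, 38.1, 48.6 and 42.3 after CGRP. In the 8 h groups it had 30.0, 30.0, 31.7 and 44.1 after PBS and 32.8, 41.2, 37.9 and 27.4 after CGRP. The groups are apart at 4 h and overlap at 8 h, and the PBS libraries at 8 h lie above those at 4 h. Its log2 fold change was 1.00 ± 0.15 at 4 h (edgeR adjusted p = 1.2e-04) and 0.04 ± 0.15 at 8 h.

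Colgalt2, a collagen galactosyltransferase, gave 129, 108, 101 and 97.4 CPM after PBS at 4 h and 41.2, 50.8, 54.5 and 56.8 after CGRP. At 8 h it gave 135, 105, 113 and 111 after PBS and 84.2, 114, 106 and 96.5 after CGRP. All CGRP libraries at 4 h lay below the other 12 libraries. It fell at 4 h by a log2 fold change of -1.10 ± 0.12 (edgeR adjusted p = 1.9e-06) and was at -0.21 ± 0.12 at 8 h. Plod2 and Colgalt2 were the 2 genes of the 49 (4.08%, beside 1.12% of all genes) whose effects at 8 h and at 4 h differed: by 0.89 ± 0.17 for Colgalt2 (edgeR adjusted p = 0.0072) and by -0.96 ± 0.22 for Plod2 (adjusted p = 0.028). For Plod2 this was lost without CGRP 4 h replicates 3 or 4 (0.0503 and 0.0533), PBS 8 h replicate 4 (0.0739) or the 4 libraries with many genes (0.224).

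Also at 4 h, the lysyl hydroxylase Plod1 and the prolyl hydroxylase subunit P4ha2 fell (-0.41 ± 0.10 and -0.40 ± 0.10, edgeR adjusted p = 0.0051 and 0.0076, the latter 0.0873 without the 4 libraries). Of 8 genes listed as chaperones and isomerases, among them the channel gene Tmem38b, 1 rose (Tmem38b) and 5 fell at 4 h. Fkbp14 and Fkbp10, prolyl isomerases of the endoplasmic reticulum, fell by log2 fold changes of -0.61 ± 0.11 and -0.55 ± 0.10 (both 7.9e-04), and Tmem38b, an endoplasmic reticulum potassium channel, rose by 0.83 ± 0.20 (0.0053). Serpinh1, the collagen chaperone HSP47, was at -0.20 ± 0.14 at 4 h and -0.05 ± 0.14 at 8 h and was not called for CGRP. Of the 5 secretion genes tested 0 were called at either time.

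Of the 9 genes called at 8 h, Fkbp7, Fkbp9, Tram2 and Itga11 were also called at 4 h, in the same direction. Of 8 propeptide processing genes 2 fell at 8 h: Adamts3, a procollagen N-proteinase, and Pcolce2, an enhancer of the C-proteinase. Adamts3 gave 10.2, 13.0, 19.3 and 13.97 CPM after PBS at 8 h and 3.84, 5.93, 6.77 and 6.73 after CGRP, groups that do not overlap (log2 fold change -1.28 ± 0.24, edgeR adjusted p = 0.0022), and was at -0.42 ± 0.24 at 4 h. Pcolce2 was at -0.49 ± 0.10 at 8 h (edgeR adjusted p = 0.0032, and 0.109 without the 4 libraries). The isomerases Fkbp9 and Fkbp7 fell at 8 h (-0.39 ± 0.08 and -0.32 ± 0.09, edgeR adjusted p = 0.0055 and 0.0272), and the lysyl hydroxylase Plod3 and the translocation factor Tram2 rose (0.38 ± 0.09 and 0.37 ± 0.10, adjusted p = 0.0073 and 0.0186). Without the 4 libraries with many genes none of these 4 was called (0.058, 0.157, 0.0583 and 0.225). Leaving out 1 library at a time, Fkbp9 and Plod3 stayed called. The call of Fkbp7 was lost without CGRP 8 h replicates 1, 2 or 4 (adjusted p = 0.116, 0.0597 and 0.0649) or any PBS 8 h replicate (0.0521 to 0.0867), and also with library totals only (0.051) and with no filter on low counts (0.0862). The call of Tram2 was lost without CGRP 8 h replicates 1 or 4 (0.0715 and 0.064) or PBS 8 h replicates 1, 3 or 4 (0.0538, 0.0634 and 0.0617).

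At 4 h these genes gave -0.25 ± 0.08 for Fkbp9, -0.28 ± 0.09 for Fkbp7 and 0.33 ± 0.10 for Tram2 (edgeR adjusted p = 0.045, 0.0322 and 0.0201), and Plod3 was at 0.13 ± 0.09 and not called. Fkbp9 was close to the threshold at 4 h: 19 of 25 alternatives ended the call, with adjusted p from 0.0506 to 0.189, among them each single library left out except CGRP 4 h replicate 3 and CGRP 8 h replicate 3. The 4 h call of Fkbp7 was lost without CGRP 4 h replicate 1 (0.156), PBS 4 h replicates 1, 2 or 4 (0.0513, 0.136 and 0.0558), PBS 8 h replicate 1 (0.0508) or the 4 libraries with many genes (0.0816), with library totals (0.0692), with no filter (0.11) and with only the 4 h groups fitted (0.0619). That of Tram2 was lost without CGRP 4 h replicates 2 or 4 (0.0707 and 0.0774), PBS 4 h replicate 4 (0.0552) or the 4 libraries (0.0603).

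Lox, the lysyl oxidase that starts cross-links, gave 52.8, 100.02, 41.8 and 54.0 CPM after PBS at 8 h and 130.2, 135, 109.7 and 164 after CGRP, so all CGRP libraries were above all PBS libraries. Its log2 fold change was 1.11 ± 0.30 (edgeR adjusted p = 0.0353). This call was lost without CGRP 8 h replicates 1, 2 or 4 (0.0847, 0.0633 and 0.0994), without PBS 8 h replicates 1, 3 or 4 (0.0933, 0.0919 and 0.0973), without the 4 libraries with many genes (0.314) and with no filter on low counts (0.0764). The other 4 cross-linking genes were not called.

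Itga11, the integrin chain that binds fibrillar collagen on fibroblasts, gave 259, 249, 241 and 267 CPM after PBS at 4 h and 193, 193, 170.4 and 141 after CGRP. Its 8 h values were 293, 303, 296 and 306 after PBS and 228, 271, 247 and 203 after CGRP. All CGRP libraries lay below all PBS libraries at both times. It fell by -0.54 ± 0.10 at 4 h (edgeR adjusted p = 4.8e-04) and by -0.34 ± 0.10 at 8 h (adjusted p = 0.0303). The 8 h call was lost without CGRP replicates 1 or 4 (0.0879 and 0.124), without any 1 of PBS replicates 1 to 4 (0.0613, 0.0593, 0.0631 and 0.0874), with library totals as the scale (0.0666) and without the 4 libraries (0.217).

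**Figure D5:**
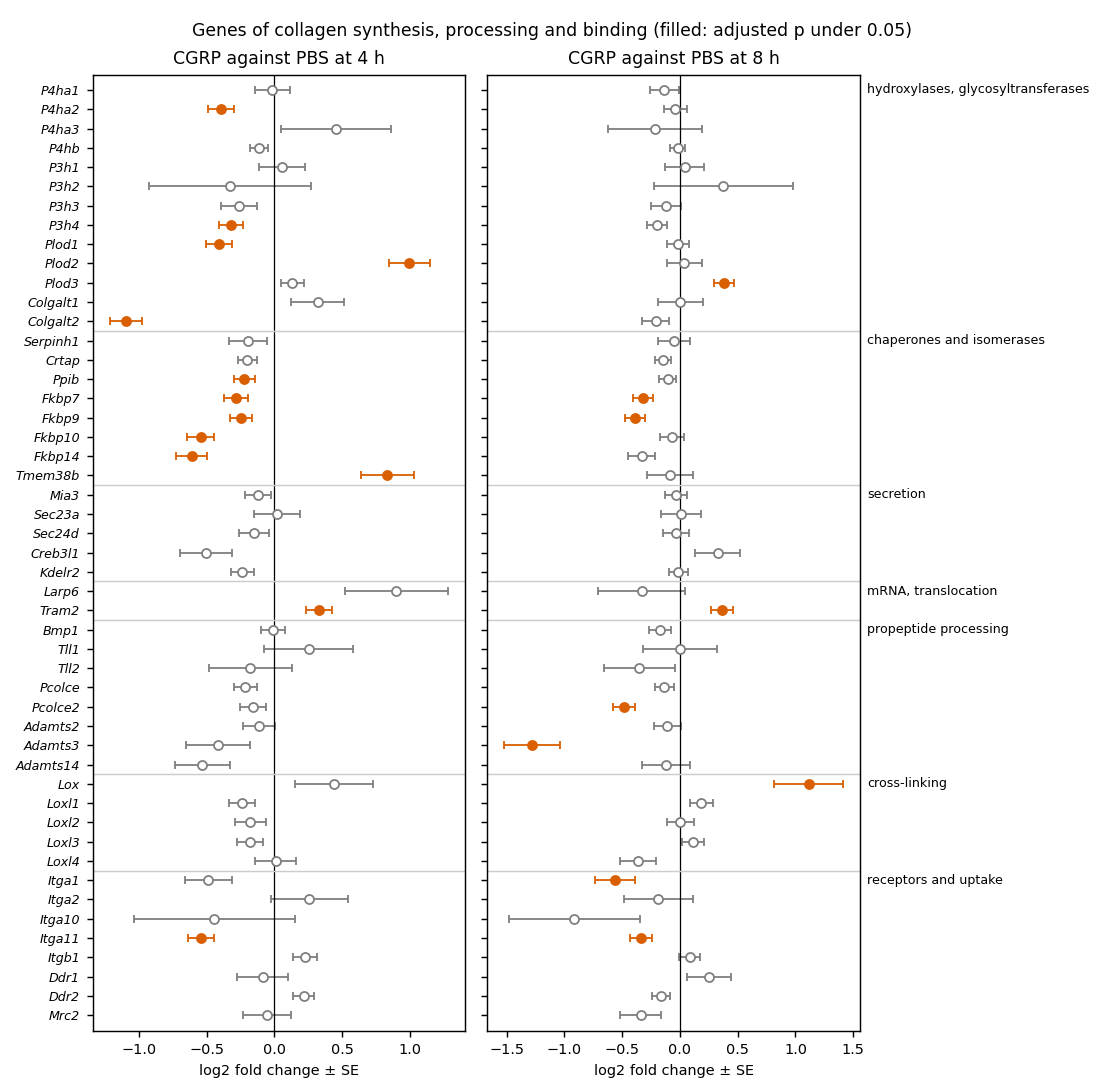
Log2 fold change of CGRP against PBS with its SE for the 49 tested genes of collagen synthesis, processing and binding at 4 h (left) and 8 h (right), ordered by step, with filled points for an adjusted p under 0.05. At 4 h 13 points are filled, 10 of them below 0, and at 8 h 9 are filled, 6 of them below 0.

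Over time, 2 of the 49 (4.08%, beside 0.516% of all genes) were called after PBS and 4 (8.16%, beside 7.26%) after CGRP. Serpinh1 gave 908, 777, 749.5 and 673 CPM after PBS at 4 h and 435, 554, 519.5 and 435 at 8 h. After CGRP it gave 895, 648, 654 and 515 at 4 h and 430.1, 469.7, 558 and 415 at 8 h. It was lower at 8 h than at 4 h in both treatments (-0.68 ± 0.14 and -0.53 ± 0.14, edgeR adjusted p = 0.0379 and 0.0261), with groups apart after PBS and overlapping after CGRP. The call after PBS was lost without PBS 4 h replicates 1, 2 or 3 (0.082, 0.0875 and 0.0747) or PBS 8 h replicates 1, 3 or 4 (0.0953, 0.0709 and 0.152) or the 4 libraries with many genes (0.235). The call after CGRP was lost without CGRP 4 h replicate 1 (0.0677) or CGRP 8 h replicates 1, 2 or 4 (0.0659, 0.0589 and 0.0651) and when only the CGRP groups were fitted (0.0514). Plod2 was higher at 8 h than at 4 h after PBS (0.75 ± 0.16, edgeR adjusted p = 0.03), a call that was lost without PBS 4 h replicates 1, 2 or 3 (0.0733, 0.0543 and 0.0747), PBS 8 h replicates 1, 3 or 4 (0.0539, 0.0541 and 0.143) or the 4 libraries with many genes (0.238). After CGRP, Colgalt2 and Itga11 were higher at 8 h (0.98 ± 0.12 and 0.44 ± 0.10, edgeR adjusted p = 1.4e-05 and 0.0052) and Ddr2, a collagen receptor kinase, was lower (-0.38 ± 0.08, adjusted p = 0.0036), and these 3 calls stayed under all 25 alternatives.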

How the data were processed

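Polyadenylated RNA of 1000 double-sorted cells per library was amplified and made into libraries with a Nextera XT kit, which marks no strand, and read as pairs of 25 bases, per the labels. The authors deposited 1 table of unnormalized read counts by gene symbol, made on mm10 with STAR 2.5.4 and featureCounts, per the submitters' processing notes, and the annotation and strand setting are not given in these sources. Counts were whole numbers in 16 columns, and in all 24 pairs of replicates the counts differed by more than sampling noise (chi-square 6.52 to 22.7 times its degrees of freedom).

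edgeR 4.0.16 (R 4.3.3) was used with filterByExpr, TMM scaling and a robust quasi-likelihood fit of 1 mean per group to all 16 libraries. Tests were two-sided and p-values were adjusted by Benjamini-Hochberg over all 13949 genes tested. Errors are SE for log2 fold changes and SD for levels. Exact permutation tests used log2 CPM with a prior count of 0.5. Levels per kilobase used the principal coding transcript of GENCODE M21, to which 44 of 44 collagens matched. PCR copies were not marked, so counts are not separate molecules. On simulated data for 4 h, the fit recovered 58.2% of the genes changed 2-fold and 90.9% of those changed 4-fold. Of the genes changed 1.5-fold it recovered 34.3%. For 8 h it recovered 31.3% of the genes changed 1.5-fold, 73.1% at 2-fold and 89.4% at 4-fold. Of the simulated calls 5.43% were false for 4 h and 0.769% for 8 h. Each simulation changed 200 genes drawn from all 13949, while 2262 genes were called at 4 h and 1210 at 8 h. These rates therefore need not hold for the data or for the collagens.

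The members and lists were chosen with earlier results of these data known. Collagens are named where called in any comparison or highest of their class by mean CPM, and of the 50 pathway genes up to 8 with the smallest p among those called in a comparison. Col1a1, Col1a2, Col11a1, Col20a1, the partner chains and the 4 h values of Fkbp7, Fkbp9, Tram2 and Plod3 were added after their values were seen. The alternatives were other scalings, filters and tools, a replicate block, leaving out libraries and other gene lengths.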

Additional observations from a re-analysis of the deposited data

Results flagged for a closer look

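In 8 cases a group held a library far from the other 3 of its group, among 84 groups looked at, and chance flags about 1 in 20 groups. In CPM, Col15a1 was at 238 in CGRP 8 h replicate 1, with the others at 292 to 299, and Col4a3 was at 86.5 in the same library, with the others at 121 to 127. Col17a1 was at 6.45 in PBS 4 h replicate 2, with the others between 11.8 and 11.9. Col4a2 was at 1252 in CGRP 4 h replicate 1, with the others at 1842 to 1935. As ratios per kilobase, Col1a1 to Col1a2 was 0.890 in PBS 4 h replicate 1 (others 0.707 to 0.717) and 0.857 in PBS 8 h replicate 2 (others 0.724 to 0.736). Col3a1 to Col1a1 was 2.68 in PBS 8 h replicate 1 (others 2.40 to 2.42), and Col4a3 to Col4a4 was 3.72 in CGRP 8 h replicate 2 (others 2.45 to 2.61).

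The effect of CGRP at 8 h minus that at 4 h passed its own test in edgeR for 2 genes of the collagen pathway. It was 0.89 for Colgalt2 (adjusted p = 0.0072) and -0.96 for Plod2 (adjusted p = 0.028).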

How the results depend on the processing

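Of 13 collagen calls, 4 stayed under all 25 alternatives: Col27a1 and Col8a2 at 4 h, and Col27a1 and Col4a6 between the times after CGRP. The alternatives that ended another collagen call stand beside it in the report, and the cause was not tested. With no filter on low counts the numbers of collagens called were 11 at 4 h, 6 at 8 h, 3 for the difference of effects and 4 between the PBS times. Those of pathway genes were then 5 for the difference, 5 between the PBS times and 9 between the CGRP times. For collagens over time after PBS, upper-quartile scaling gave 1, library totals 1, only the groups compared 2 and DESeq2 1. DESeq2 gave 4 pathway genes for the difference, 6 over time in PBS mice and 7 in CGRP mice. Without the 4 libraries with many genes the collagen counts were 0 at 8 h and 2 for time after CGRP, and the pathway counts 1 at 8 h, 1 for the difference and 0 for time after PBS. The alternative of fitting only the groups compared was not run for the difference, which uses all groups.

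Leaving out 1 library at a time gave 2 to 8 collagens at 4 h, 1 to 4 at 8 h, 0 to 1 for the difference, 0 to 2 between the PBS times and 3 to 5 between the CGRP times. For pathway genes the ranges were 9 to 13, 4 to 9, 1 to 4, 0 to 4 and 3 to 6. The sign turned for uncalled genes only: Col3a1 at 8 h (-0.23 to 0.13, with 0.031 without CGRP 8 h replicate 1 and the highest without PBS 8 h replicate 2), Col4a2 at 4 h (-0.075 to 0.21, the lowest without PBS 4 h replicate 2), Col28a1 at 4 h (-0.56 to 0.32, with 0.32 and 0.24 without replicate 1 of CGRP and of PBS) and Col7a1 at 8 h (-0.86 to 0.29, with 0.17 and 0.067 without CGRP 8 h replicates 2 and 3, 0.29 without PBS 8 h replicate 1).

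No label says that a replicate number marks a shared mouse, litter or day. Deviations of same-numbered libraries correlated at -0.032 to 0.092, and values this low do not settle whether the libraries were paired. With the number as a block, 8 collagens were called at 4 h, 3 at 8 h, 0 for the difference, 0 over time after PBS and 3 after CGRP, where Col8a2 was lost (adjusted p = 0.0571). Chain ratios depend on gene length: per merged exon kilobase, an alternative chosen after seeing the data, Col1a1 to Col1a2 was 1.67 in place of 0.793. At this depth 9 collagens reached 10 reads in at most 2 libraries and were not tested.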
